A study of Caenorhabditis elegans with 2 samples.

Results

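The retinoblastoma gene lin-35 and 8 genes of E2F, DP and MuvB proteins were examined for binding of the transcription factor APTF-3. Most of the 8, though not efl-2, encode known partners of LIN-35 in the DREAM complex. The 8 were efl-1, efl-2, dpl-1, lin-9, lin-37, lin-52, lin-53 and lin-54, which with lin-35 makes 9 of 19973 nuclear protein-coding genes. The list was chosen by gene function with these peak lists in view. The measured values behind that choice were the summits in each promoter and the highest signal there, so counts, signals and ranks at the 9 genes are given as descriptions, with no test. All 9 genes were found in the annotation by symbol, and all had at least 1 summit in the promoter window of the joint ranked list, so no gene was lost to a filter.

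The study mapped APTF-3, a member of the AP-2 family of transcription factors, by chromatin immunoprecipitation and sequencing (ChIP-seq) in whole young adult Caenorhabditis elegans at 64 h. There was 1 group with 2 biological replicates and no second condition. Both came from strain OP765, which carries the integrated transgene wgIs765 (aptf-3 fused to TY1, EGFP and 3xFLAG, with unc-119(+)) in a background carrying the unc-119 mutation tm4063, so the tagged copy and the rescued mutation were common to every sample. Animals were synchronised as starved first-stage larvae after bleaching, chromatin was sonicated to 200 to 800 bp, and an anti-GFP antibody was used for the precipitation. Whole animals mix all cell types, so a signal may come from few or many of them, and the replicates' relation to separate cultures is not described beyond the word biological.

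DREAM is a repressor complex that holds cell cycle genes, and in the worm soma also germline genes, in check. An E2F protein with its DP partner binds one kind of DNA element, the MuvB core binds another through its LIN-54 subunit, and the pocket protein, LIN-35 in worms, links them. In worms many genes of the complex are known from the class B synthetic multivulva (synMuv) screens, and lin-35 is the only retinoblastoma family gene of this animal.

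Sequence around the highest summit of the joint ranked list is shown for the 5 genes whose letters the description of motifs returns to: 3 with an E2F-type match beside that summit, 1 with the AP-2 family consensus, and lin-54, the DNA-binding subunit with the highest MuvB signal. All are read from the RefSeq copy of WBcel235 (ce11), on the strand of the gene and 5′ to 3′, and each is the longest stretch within 100 bases of the summit that holds no annotated untranslated base. Capitals mark every match, on either strand, to the searched motifs, which are the AP-2 consensus GCCNNNGGC, the E2F-type elements TTTCGCGC, TTTCCCGC, TTTGCCGC and TTTGGCGC, the CHR elements (cell cycle genes homology region) TTTGAA and TTCGAA, and the CDE core (cell cycle dependent element) GGCGG.
lin-9, chrIII:8904132-8904272, minus strand, 141 bases: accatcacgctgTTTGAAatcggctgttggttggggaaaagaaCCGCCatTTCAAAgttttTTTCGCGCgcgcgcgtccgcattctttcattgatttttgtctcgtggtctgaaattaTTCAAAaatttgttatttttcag
lin-52, chrIII:9825562-9825762, minus strand, 201 bases: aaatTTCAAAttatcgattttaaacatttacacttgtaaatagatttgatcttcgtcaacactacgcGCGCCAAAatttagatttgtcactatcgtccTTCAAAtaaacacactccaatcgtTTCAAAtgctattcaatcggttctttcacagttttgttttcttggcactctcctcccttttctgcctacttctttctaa
efl-1, chrV:16965709-16965909, minus strand, 201 bases: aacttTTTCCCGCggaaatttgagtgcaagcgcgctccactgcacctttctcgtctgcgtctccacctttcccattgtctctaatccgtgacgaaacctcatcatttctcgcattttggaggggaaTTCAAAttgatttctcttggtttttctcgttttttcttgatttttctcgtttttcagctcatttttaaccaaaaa
efl-2, chrII:13406160-13406324, plus strand, 165 bases: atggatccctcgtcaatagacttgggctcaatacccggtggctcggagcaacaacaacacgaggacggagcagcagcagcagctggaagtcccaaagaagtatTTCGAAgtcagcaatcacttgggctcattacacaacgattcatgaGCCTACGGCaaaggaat
lin-54, chrIV:13240652-13240723, plus strand, 72 bases: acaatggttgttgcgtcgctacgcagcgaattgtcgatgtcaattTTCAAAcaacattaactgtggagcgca
The lin-9 stretch ends at the base before its annotated 5′ end. The efl-2 stretch is coding sequence from the start codon on, and the lin-54 stretch is the intergenic part between lin-54 and its neighbour rpl-12, and does not reach the summit, which is in untranslated sequence.

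The files were 8 peak lists in ce11 coordinates, 1 ranked and 1 thresholded for each replicate, for the joint set of the series and for a conservative set. IDR, the irreproducible discovery rate, measures how repeatably a peak ranks between the inputs compared. In a list of 1 replicate it cannot compare the 2 replicates. For the joint and conservative lists the labels do not tie those inputs to a replicate. An IDR is therefore not read here as agreement between the 2 biological replicates. All thresholded peaks had an IDR of 0.01 or less. The joint thresholded list held 785 peaks, the conservative 675, replicate 1 178 and replicate 2 241, with median signals of 76.6, 79.6, 57.4 and 58.6. The ranked lists held 99784, 99255, 85218 and 72073 peaks, most of them far past that IDR. The signal is the authors' value per peak on an unstated scale, so it was compared only within a list, and the joint and conservative lists carry the same pooled signals. Read depth is unknown. A promoter window ran from 1000 bp upstream to 200 bp downstream of the gene's 5′ end. A percentile is the percent of protein-coding genes whose highest signal in that window was lower, and tied genes shared the middle percentile. A gene with no summit had a signal of 0 and was tied with all other such genes.

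lin-35, the retinoblastoma gene (WBGene00003020, chrI:5807709-5815637, plus strand), was the only one of the 9 with a thresholded peak of the joint list in its promoter. The peak, chrI:5807383-5807678, had its summit in intergenic sequence 178 bp upstream of the 5′ end. Its joint signal was 82.4, rank 349 of the 99784 ranked peaks and 303 of the 785 thresholded ones, just above their median. In the ranked lists of the replicates its signal was 21.1 in replicate 1 and 57.3 in replicate 2. The summit lay at the same base in replicate 1 and 6 bp further upstream in replicate 2, so the position repeated while the standing did not. Replicate 2 placed the promoter at percentile 99.7 of protein-coding genes, with 55 genes above it, and replicate 1 at percentile 84.2, with 3158 above it. The IDR was 0.406 in replicate 1 and 0.00274 in replicate 2, where the peak was rank 131 of 241 thresholded peaks.

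The joint IDR of the lin-35 peak was 0.00251. The conservative list gave the same peak an IDR of 0.0363, and there the nearest thresholded summit lay 100742 bp from the gene's 5′ end. The thresholded call at lin-35 therefore stands in the joint list and in replicate 2, and not in the conservative list or in replicate 1. Of all protein-coding genes, 1.49% had a joint thresholded summit in the window, 1.38% a conservative one, 0.416% one of replicate 1 and 0.486% one of replicate 2. The corresponding counts among the 9 genes were 1, 0, 0 and 1. With 9 genes, 1 gene is the smallest count above 0, and it was the same gene in both lists. Ranked summits were common: 69.8% of protein-coding genes had one in the joint list, 69.5% in the conservative list, 66.1% in replicate 1 and 57.9% in replicate 2, beside 9, 8, 8 and 9 of the 9 genes. The gene without a ranked summit in the window was dpl-1, in the conservative list and in replicate 1.

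**Figure D1:**
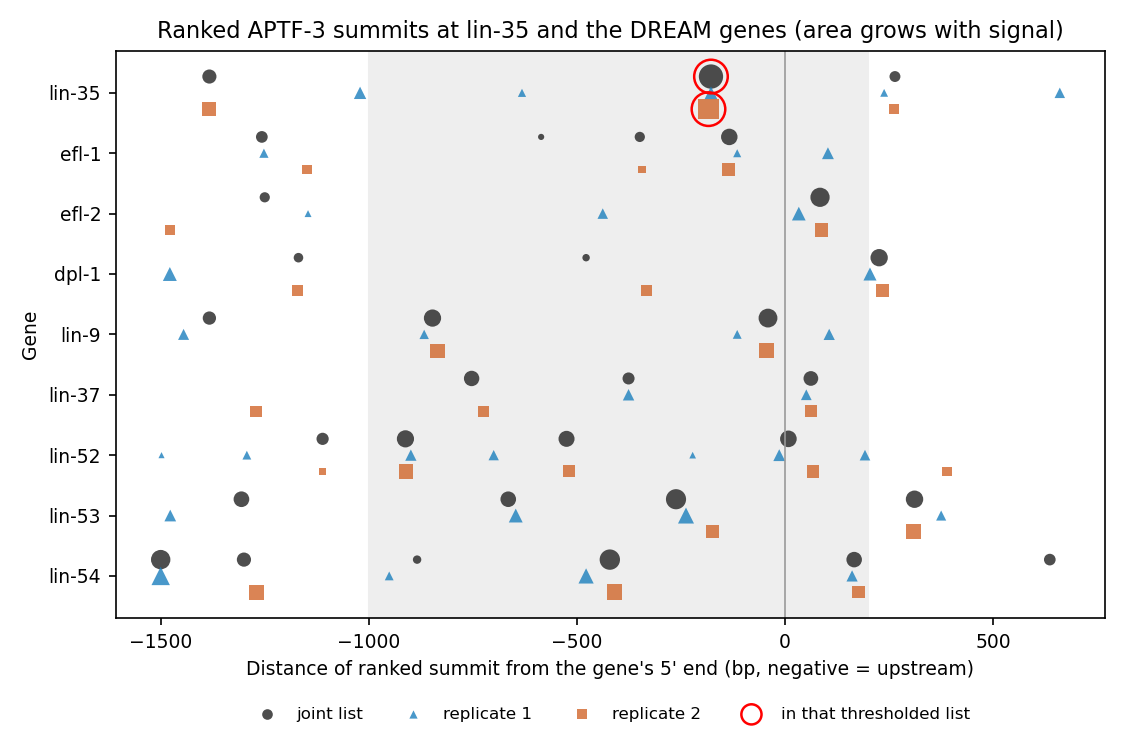
Distance in bp of every ranked summit from the 5′ end of each of the 9 genes (horizontal axis, negative upstream), from 500 bp beyond one window edge to 500 bp beyond the other, for the joint list (circles), replicate 1 (triangles) and replicate 2 (squares), with area growing with the signal and the promoter window in grey. Red rings mark summits that are also in the thresholded list of the same kind, and they occur only at lin-35, 178 bp upstream in the joint list and 184 bp upstream in replicate 2.

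The lin-35 peak also lies in the promoter window of a second gene. vps-51, which encodes a subunit of a vesicle tethering complex, is transcribed from the other strand with its 5′ end 418 bp from that of lin-35. The summit was 240 bp upstream of vps-51, so it lay between the divergent 5′ ends and slightly nearer to lin-35, and 48.5% of the lin-35 window is inside vps-51. The peak lists do not assign the signal to one of the pair. Sharing of this kind was frequent: of the 298 protein-coding genes with a joint thresholded summit, 100, or 33.6%, shared it with another protein-coding window. Beyond the window, a weak ranked summit lay in an intron of lin-35, 264 bp downstream with a joint signal of 14.7. Another lay in a coding exon of vps-51, 1383 bp upstream with 26.3, above 63.1% of the joint ranked list. Replicate 1 had a summit 1021 bp upstream with 19.5, near the 21.1 of its promoter summit, and replicate 2 one 1384 bp upstream with 26.8.

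Among the E2F and DP genes, efl-2 had the strongest promoter signal in the joint list and in replicate 1 and efl-1 in replicate 2, and dpl-1 had the weakest in all 3. efl-2 (WBGene00001162, chrII:13406140-13411895, plus strand) encodes an E2F family protein. Its highest signal was 24.6 in replicate 1, 23.7 in replicate 2 and 50.8 in the joint list, at percentiles 91.2, 88.3 and 94.9. The single joint summit was 84 bp downstream of the 5′ end, inside the first coding bases printed above, with a joint IDR of 0.0711. The replicates gave efl-2 nearly the same standing, unlike lin-35.

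efl-1 (WBGene00001161, chrV:16958590-16965675, minus strand) encodes the E2F family protein that acts with DPL-1 and LIN-35. The highest signal of efl-1 was 17.8 in replicate 1, 25.11 in replicate 2 and 36.6 in the joint list, at percentiles 74.4, 90.7 and 81.9. The joint list had 3 summits in the window, all intergenic, at 134, 349 and 586 bp upstream with signals of 36.6, 12.6 and 2.98. Replicate 2 matched the strongest of them to 2 bp. Replicate 1 had a signal of only 6.85 there and its highest value 103 bp downstream of the 5′ end instead. The joint IDR of the strongest summit was 0.481.

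dpl-1 (WBGene00001061, chrII:9169910-9172565, plus strand) encodes DP, the partner that E2F proteins need to bind DNA. It had no ranked summit in the window in replicate 1, a highest signal of 15.4 in replicate 2 and of 5.44 in the joint list, at percentiles 17.0, 65.2 and 31.0. It was the one gene of the 9 below the median gene, in replicate 1 and in the joint list. This low value depends on the window edge. A joint summit with a signal of 40.8 lay 226 bp downstream of the 5′ end, or 26 bp past the edge, in a coding exon of dpl-1, and both replicates had one nearby, at 204 bp with a signal of 22.1 in replicate 1 and at 234 bp with 21.6 in replicate 2. When the window was widened to reach 2000 bp upstream and 500 bp downstream, the joint percentile of dpl-1 was 76.6. The whole window also lies inside another gene, T23G7.2, and the summit 478 bp upstream is in an intron of that gene.

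The 5 MuvB genes all had joint signals above the median of protein-coding genes, and none had a thresholded summit in the window. lin-54 and lin-53 stood highest in the joint list and in replicate 1. In replicate 2 lin-54 stood highest, and lin-53 was below lin-9 and lin-52 too. lin-54 (WBGene00003037, chrIV:13241044-13243401, plus strand) encodes the DNA-binding subunit, whose human counterpart binds CHR elements. Its highest signal was 30.9 in replicate 1, 32.8 in replicate 2 and 57.2 in the joint list, at percentiles 96.5, 97.1 and 97.1. These are close together, and lin-54 was the one gene over the 95th percentile in each of the 3.

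The lin-54 summit lay 421 bp upstream, in the peak chrIV:13240475-13240770, which is in the annotated 5′ untranslated region of rpl-12, a ribosomal protein gene on the other strand. It is 28 bp downstream of the 5′ end of rpl-12, and the 5′ ends of the pair are 393 bp apart. The summit of the joint list had an IDR of 0.0489, and the conservative list gave 0.0132, just past the threshold of 0.01. Further summits in the window were a weak one in a coding exon of rpl-12, 884 bp upstream with a signal of 7.71, and one in an intron of lin-54, 166 bp downstream with 32.2. Just outside the window were summits 1300 bp upstream, in a coding exon of rpl-12, and 1500 bp upstream, in intergenic sequence. They had joint signals of 26.5 and 51.7 and belong to the conservative thresholded list, at IDRs of 0.00851 and 0.00849. Their joint IDRs were 0.0188 and 0.0187, so these peaks outside the window passed in the conservative list and not in the joint list. The peak in the lin-35 window did the reverse.

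lin-53 (WBGene00003036, chrI:9618196-9619760, minus strand) encodes a histone-binding protein of the RbAp48 type that other chromatin complexes also use. Its highest signal was 34.4 in replicate 1, 20.9 in replicate 2 and 55.9 in the joint list, at percentiles 97.9, 82.2 and 96.7. It was thus the only one of the 9 that stood over 10 percentile points higher in replicate 1. The summit was intergenic, 262 bp upstream of lin-53 and 205 bp upstream of nra-2, whose 5′ end is 467 bp away on the other strand, and its joint IDR was 0.0317. A further summit with a signal of 32.5 lay in a coding exon of nra-2. Outside the window, the coding exon of lin-53 had one 311 bp downstream with a joint signal of 41.1, and in replicate 2 that summit, with 31.0, was stronger than the one upstream.

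lin-9 (WBGene00002998, chrIII:8900237-8904131, minus strand) encodes a core subunit of MuvB. Its highest signal was 15.8 in replicate 1, 30.7 in replicate 2 and 48.5 in the joint list, at percentiles 67.0, 96.0 and 93.7. The joint list had intergenic summits 41 bp upstream, with 48.5 and an IDR of 0.477, and 847 bp upstream, with 40.3 and an IDR of 0.164. The stronger summit therefore had the higher joint IDR. Replicate 2 matched both within 12 bp, and replicate 1 had its highest value 106 bp downstream of the 5′ end.

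lin-52 (WBGene00003035, chrIII:9824083-9824750, minus strand) encodes the MuvB subunit whose human counterpart contacts the pocket protein. Signal in the window reached 17.8 in replicate 1, 28.4 in replicate 2 and 40.0 in the joint list, at percentiles 74.5, 94.4 and 86.6. Its 3 joint summits were of like height, 40.0 in intergenic sequence 912 bp upstream, 34.5 in a coding exon of ZK632.9 525 bp upstream, and 37.3 in its own coding exon 8 bp downstream. ZK632.9 is on the same strand and ends 126 bp before lin-52 starts. The summit farthest upstream lies 230 bp ahead of the 5′ end of ZK632.9, and is thus in the promoter window of that gene too.

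lin-37 (WBGene00003022, chrIII:7070890-7072552, minus strand) encodes a MuvB subunit whose mammalian counterpart is needed for repression by DREAM. At most the signal was 16.4 in replicate 1, 16.4 in replicate 2 and 31.7 in the joint list, at percentiles 69.5, 68.7 and 73.4. It was the lowest of the MuvB genes in the joint list, and the replicates gave it almost the same standing. The replicate values came from different summits, however, 376 bp upstream in replicate 1 and 62 bp downstream in replicate 2. The summits 753 and 376 bp upstream, with joint signals of 31.7 and 18.4, were in coding exons of ZK418.5. This same-strand gene ends 60 bp before lin-37 and covers 78.3% of the window. The summit 62 bp downstream, with 28.7, was in the coding exon of lin-37 itself.

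Over the 9 genes, the median of the highest signal was 48.5 in the joint list, against 20.6 over all protein-coding genes. In replicate 1 these medians were 17.8 and 11.4, and in replicate 2 they were 25.11 and 10.4. All protein-coding genes include those with no summit. Over genes with a summit the medians were 27.5, 15.8 and 17.2. The median percentile of the 9 was 93.7 in the joint list, 74.5 in replicate 1 and 90.7 in replicate 2. More than the 90th percentile was reached by 5 of 9 in the joint list, 3 of 9 in replicate 1 and 5 of 9 in replicate 2. The 9 windows held a median of 2 joint ranked summits, against 1 over all genes. Because the list was drawn up with these values in view, the height of the 9 medians is not evidence about DREAM genes as a class.

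**Figure D2:**
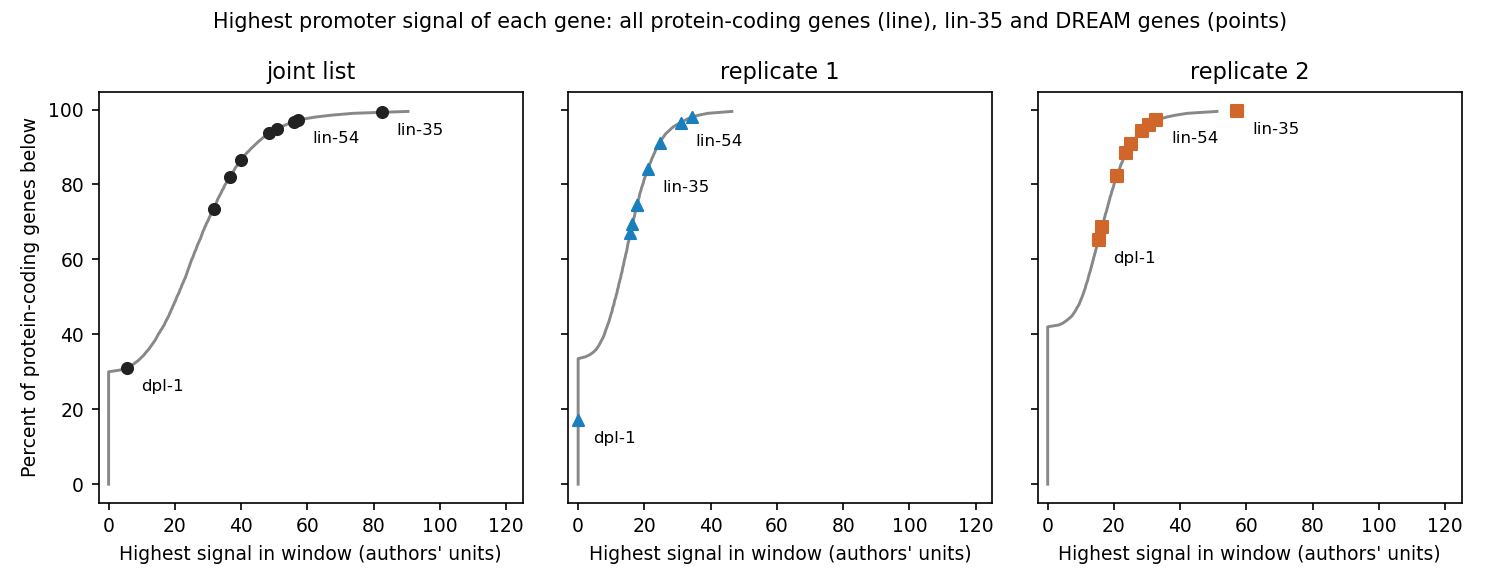
Percent of protein-coding genes with a lower highest promoter signal (vertical axis, %, ties at the middle) against that signal (horizontal axis, authors' units). The joint list and each replicate have separate panels. The grey line is for all protein-coding genes up to the 99.5th percentile, and points are for the 9 genes. The signal of lin-35 is 82.4, 21.1 and 57.3 in the 3 panels, far up the curve in the joint list and replicate 2 and among the other genes in replicate 1.

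In joint signal the order was lin-35, lin-54, lin-53, efl-2, lin-9, lin-52, efl-1, lin-37 and dpl-1. The highest joint summits of lin-35, lin-54, lin-53 and lin-52 also lie in the promoter window of a neighbouring gene. The peak lists do not assign these signals to either gene of a pair. Adjacent in this order, lin-54 and lin-53 differed by less than the replicates did. lin-53 ranked above lin-54 in replicate 1, and in replicate 2 it was below lin-54, lin-9, lin-52, efl-1 and efl-2. Likewise the replicates reversed the order of efl-2 and lin-9. lin-35 was first in replicate 2, and in replicate 1 it stood behind lin-53, lin-54 and efl-2, so its first place rests on replicate 2.

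**Figure D3:**
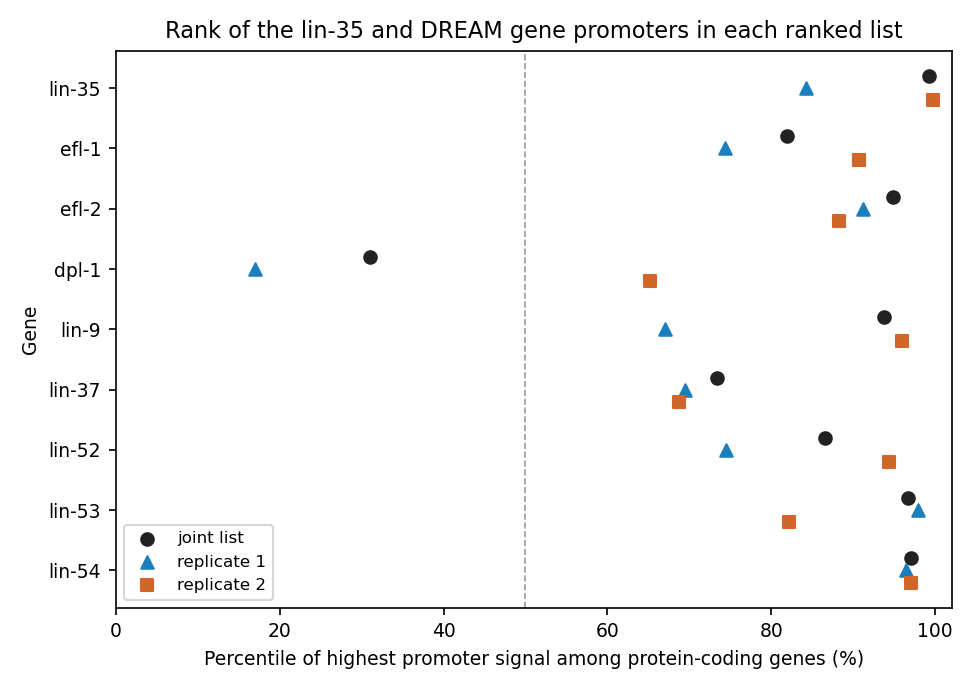
Percentile of the highest promoter signal among 19973 protein-coding genes (horizontal axis, %) for each of the 9 genes in the joint ranked list (circles), replicate 1 (triangles) and replicate 2 (squares), with a dashed line at the median gene. Points of lin-54, lin-37 and efl-2 lie close together, though those of lin-37 come from different summits in each replicate. Those of dpl-1 and lin-9 are the farthest apart, at 48.3 and 29.0 percentile points between replicates.

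The replicates differed about as much at these genes as elsewhere. The median absolute difference in percentile between replicates was 15.8 points over the 9 genes and 15.6 over all protein-coding genes. Replicate 2 was higher for 6 of the 9 and replicate 1 for 3, efl-2, lin-37 and lin-53. The differences, as replicate 2 minus replicate 1, were 15.5 points for lin-35, 16.3 for efl-1, 19.9 for lin-52, 0.596 for lin-54 and -15.8 for lin-53. Of the 19 joint ranked summits in the 9 windows, 14 had a summit of replicate 1 within 100 bp, 14 one of replicate 2, 11 had both and 2 had neither. The 2 without a match were the weakest at efl-1 and the one at dpl-1. By annotation, 8 of the 19 summits were intergenic, 8 in coding exons, 2 in introns and 1 in a 5′ untranslated region. The shares of matched summits and of each annotation over all joint ranked summits were not computed. These counts therefore only describe the 9 windows.

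The IDR gives a graded view of the same promoters. The lowest joint IDR in each window was 0.00251 at lin-35, 0.0317 at lin-53, 0.0489 at lin-54 and 0.0711 at efl-2. At the other 5 genes it ran from 0.156 at lin-52 to 0.7 at dpl-1. An IDR of 0.05 or less, a limit chosen after the values were seen, was met by 3 of 9 genes in the joint list, against 4.09% of protein-coding genes, and by 2 of 9 in the conservative list, lin-54 and lin-35, against 3.8%. The rule that chose the genes used peaks of the same lists, so these shares are set beside each other without a test. The median of the lowest joint IDR was 0.156 over the 9 and 0.485 over all protein-coding genes, and in replicate 1 it was 0.406 and 0.84, with a gene that had no summit in its window counted as an IDR of 1. Within the windows, in neither replicate alone did any gene but lin-35 come under an IDR of 0.1. Outside the window of lin-54, its summit 1500 bp upstream had an IDR of 0.0115 in replicate 1, with a signal of 46.4.

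**Figure D4:**
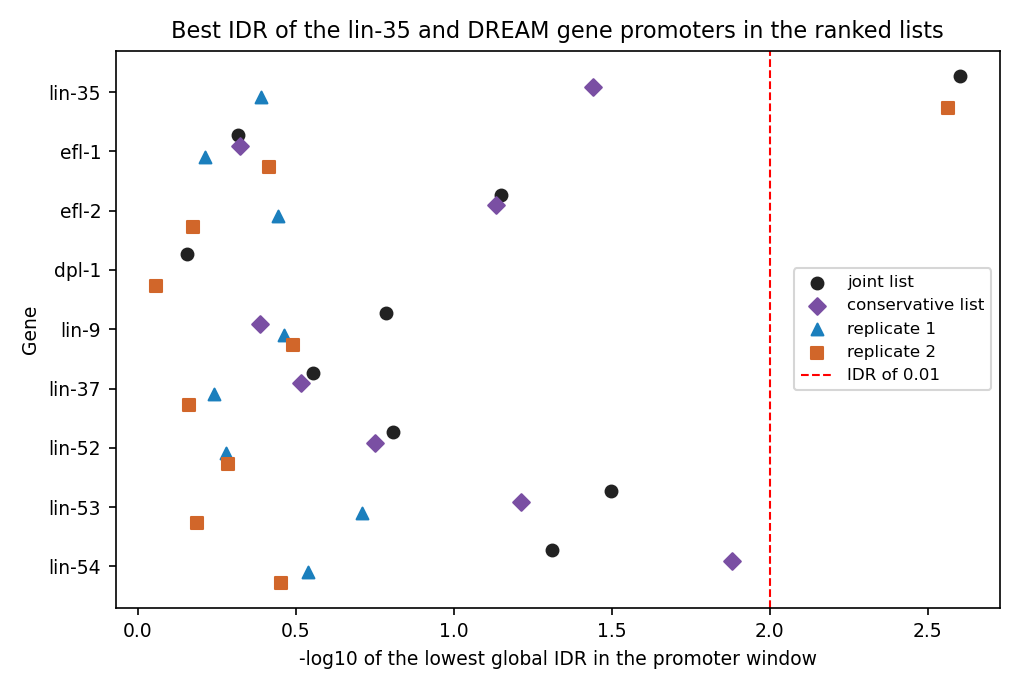
The −log10 of the lowest global IDR in the promoter window (horizontal axis, higher means a lower IDR) of each of the 9 genes. Values are from the joint, conservative and replicate ranked lists, with a dashed red line at an IDR of 0.01. There is no point where the window had no summit. Only lin-35 crosses the line, in the joint list and in replicate 2, and lin-54 comes nearest to it otherwise, at 0.0132 in the conservative list.

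Thresholded peaks near the other 8 genes were mostly distant. The nearest joint thresholded summit lay 4996 bp from the 5′ end of lin-53, with a signal of 65.8, and 5703 bp from that of lin-9, with 78.4. For the others the distance ran from 21972 bp at lin-54 to 173341 bp at efl-1. The nearest annotated transfer, small nucleolar or small nuclear RNA gene was between 1546 bp (JC8.15, a small nucleolar RNA gene near lin-54) and 152345 bp from the highest summit, and it was 18189 bp away at lin-35.

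The letters of the promoters, which the choice of genes did not use, were set beside those of all protein-coding promoters of the same length of 1201 bp. E2F-type elements were present in 5 of 9 windows, those of efl-1, lin-9, lin-52, lin-53 and lin-54, against 16.5% of 19972 windows. The AP-2 consensus was present in 1 of 9, that of efl-2, against 5.31%. CHR elements, which are short and rich in A and T, were present in 9 of 9 against 98.8%, and the CDE core in 7 of 9 against 56.8%. GC content had a median of 37.0% over the 9 and 35.0% over all, and the soft-masked share had medians of 28.6% and 31.5%. The window of lin-35 held neither an E2F-type element nor the AP-2 consensus, with a GC content of 35.1%, although it carried the highest signal.

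Within 100 bp of the highest joint summit, E2F-type elements were found at 3 of 9, against 4.87% of the 13947 protein-coding genes with a summit. In the printed sequences they are TTTCGCGC 39 to 32 bases before the lin-9 summit, GCGCCAAA, the reverse complement of a searched element, 33 to 26 bases before the lin-52 summit, and TTTCCCGC 95 to 88 bases before the efl-1 summit. At lin-9 that element stands next to a run of alternating g and c and follows CCGCC, the CDE core on the other strand, 57 to 53 bases before the summit, with TTCAAA between them. The AP-2 consensus was found at 1 of 9 against 1.68%, as GCCTACGGC 84 to 92 bases after the efl-2 summit. CHR elements were found at 7 of 9 against 44.3% and the CDE core at 2 of 9, lin-9 and lin-54, against 22.1%. At lin-35 and at lin-37 none of the 4 kinds was found in this window. Median GC content was 43.3% at the 9 summits and 39.8% at all of them. A match describes the letters, not a bound site. The CDE core can overlap an E2F-type element or the AP-2 consensus, and both are then counted.

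Other genes of the pathway, in lists set up with earlier results of these data known, had few thresholded summits. Of 26 other synMuv and partner genes, which include the heterochromatin and MEC complex genes and efl-3, 0 had a joint thresholded summit in the window, and their median joint percentile was 74.3. Of 20 regulators of the G1 and S phases 1 had one, with a median percentile of 68.1. Of 35 DNA replication genes 2 had one, with a median percentile of 72.5. Of 28 genes listed as germline genes repressed in the soma 1 had one, with a median percentile of 74.4. That list also holds chromatin regulators such as mrg-1 and mes-4, and repression in the soma was not checked gene by gene. These shares, 5.0%, 5.71% and 3.57%, stand on 1 or 2 genes each beside the 1.49% of all protein-coding genes.

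The 4 genes with such a summit were cdc-25.3, rpa-2, pcn-1 and deps-1. cdc-25.3, a phosphatase gene of the CDC25 family, had signals of 52.4 in replicate 1, 57.3 in replicate 2 and 109 in the joint list, with a peak at chrIII:8918053-8918348, 272 bp upstream, present in all 4 thresholded lists. rpa-2, which encodes a single-strand DNA binding protein of replication, had 73.0 in replicate 1, 60.8 in replicate 2 and 137 in the joint list, again in all 4. pcn-1, the sliding clamp gene PCNA, had 46.4 in replicate 1, 26.3 in replicate 2 and 71.7 in the joint list, at chrIV:4049577-4049872, and was in the joint thresholded list only. deps-1, a P granule gene, had 48.1 in replicate 1, 44.6 in replicate 2 and 91.1 in the joint list, and its summit is also in the window of Y65B4BL.4. Each of the 4 exceeded the 21.1 of lin-35 in replicate 1, and in replicate 2 cdc-25.3 had the same rounded value of 57.3 as lin-35 and rpa-2 a higher one.

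The genes with a pattern most like lin-35 were sought among the 9161 protein-coding genes with a summit in all 3 ranked lists, by distance on the log10 scale of the highest signal in replicate 1, replicate 2 and the joint list. They were mab-10 at a distance of 0.055, dlc-1 and nduf-2.2 at 0.074, Y53H1A.2 at 0.090 and tmem-39 at 0.105. mab-10 had signals of 23.5 in replicate 1, 54.9 in replicate 2 and 78.2 in the joint list. dlc-1 and nduf-2.2 had the same values, 24.6, 56.5 and 87.9 in that order. Whether they share the same summits was not checked, so the pair may not be separate examples. All 5 had a joint thresholded summit. Because they were picked for signals near those of lin-35 in these lists, their likeness to it follows from the choice. They show only that such a combination of values occurs at other genes too.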

How the data were processed

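APTF-3 ChIP-seq peak lists of 2 biological replicates of 1 strain were used, numbered as in the labels. The authors deposited a ranked and a thresholded list per replicate and for a joint and a conservative IDR set of the series. Each peak has a signal given by the authors on a scale that is not stated, and the deposited ranked lists give the −log10 of the global IDR. The assembly is ce11, per the labels. Neither aligner nor peak caller nor depth is given in the sources used here. The control was not analysed here, and 16 columns of single inputs were not used. Thresholded peaks were matched to the ranked lists to read their IDR. Summits (1-based) were placed in windows around gene 5′ ends of the Ensembl release 115 annotation with Python 3.11.15, numpy 2.4.6 and pandas 2.3.3, after a test on simulated data. Genes with equal signals shared the middle percentile, and a gene with no summit had a signal of 0. A ranked summit of a replicate matched a joint one within 100 bp.

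Named genes were the 9 genes, protein-coding genes that share their highest summit or start within 1000 bp, pathway genes with a thresholded summit, and the 5 genes most like lin-35. Genes the highest or neighbouring summits lie in were named besides. The 9 genes and the pathway lists were chosen with earlier results of these data known. In the DNA replication list, 35 of 36 symbols matched. No tests or p-values were computed, since there is 1 group and the peaks chose the genes. Alternatives were the conservative list, each replicate alone, stronger peaks, other windows, other assignments of a peak to a gene, and summed signals.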

Additional observations from a re-analysis of the deposited data

How the results depend on the processing

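The count of the 9 genes with a thresholded promoter summit was 1, lin-35, in the joint list and when the lower 50% of peaks by signal were left out, under 4 other windows, assignment to the nearest 5′ end and overlap by any base. It was 0 in the conservative list, and leaving out either replicate gave a range of 0 to 1, with 0 in replicate 1 alone. The percentile of lin-35 was 99.3, with a range of 84.2 to 99.7 for either replicate alone and of 96.1 to 99.5 under the conservative list, the windows and summed signals. The median percentile of the 9 was 93.7, with ranges of 74.5 to 90.7 and 88.2 to 96.7 for the same alternatives. Replicate 1 alone thus moved all 3 of these values, and the cause was not tested. Of 56 percentiles of the other 8 genes under alternatives, 35 moved by less than the SD of the replicates and 21 by more. That SD rests on 2 values per gene, which are themselves among the 56. It ran from 0.421 points at lin-54 to 34.1 at dpl-1, so this split does not measure how stable the percentiles are. The percentile of dpl-1 moved with the window, to 76.6 with 2000 bp upstream to 500 bp downstream and 52.3 with 500 bp upstream to 100 bp downstream, against 31.0. No paired analysis was possible because there is 1 group. Unknown depth and 2 replicates limit the precision of each signal.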
